A study of Mus musculus with 4 samples.

Results

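A set of 10 genes that write or erase methylation on lysine 36 of histone H3 (H3K36) were followed in regulatory T (Treg) cells with and without the writer Nsd2. They were taken by name from the gene column of the deposited tables. They were 5 writers (Nsd2, Nsd1, Nsd3, Ash1l and Setd2) and 5 erasers (Kdm2a, Kdm2b, Kdm4a, Kdm4b and Kdm4c), out of 14220 named genes, and they had 17 of the 19291 transcript rows in each table. Nsd2 is listed there under its older symbol Whsc1, and Nsd3 under Whsc1l1. RNA-seq libraries came from Treg cells of the spleen of C57BL/6 mice, 2 from mice with Nsd2 conditionally knocked out in Treg cells (cKO) and 2 from wild-type (WT) mice. RNA of at least 3 mice was pooled for each library. P-values therefore measure the spread between pools, part of which may be technical. The labels give neither the deleted exons, nor the Cre driver, nor the age of the mice.

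H3K36 methylation is laid down over gene bodies and between genes in steps. Nsd1, Nsd2, Nsd3 and Ash1l add the first methyl groups and make H3K36 mono- and dimethylation, and Setd2, which travels with elongating RNA polymerase II, makes the trimethyl mark. Kdm2a and Kdm2b remove the mono- and dimethyl marks, and both bind unmethylated CpG islands through a zinc finger. Kdm4a, Kdm4b and Kdm4c act on trimethylated H3K36 and also on trimethylated lysine 9 of the same histone. In many cell types the marks guide DNA methylation and limit the spread of Polycomb repression.

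Values are RPKM, a read count scaled by transcript length and sequencing depth, which allows levels of different genes to be set side by side. The steps between low values gave depths of 19228000 and 21268000 reads in cKO and 19515000 and 19151000 reads in WT. Foxp3, Il2ra, Ctla4, Ikzf2, Cd3e and Cd4, listed as Treg markers, together stood at 836 and 919 RPKM in cKO and 841 and 892 RPKM in WT. Foxp3 alone stood at 145 and 113 RPKM in cKO and 144 and 128 RPKM in WT. The sum does not measure the purity of the cells. The 3 B cell markers read here, Cd79a, Cd79b and Cd22, summed to 11.7 and 10.8 RPKM in cKO and 8.46 and 6.78 RPKM in WT. The cKO values of each were clear of the WT values and higher, as for 17.4% of all 10709 genes tested, and their part in the results that follow was not tested. The 6 myeloid markers summed to 18.1 and 6.89 RPKM in cKO and 6.997 and 9.82 RPKM in WT. The 4 listed erythroid markers summed to 32.4 and 5.45 RPKM in cKO and 18.0 and 8.72 RPKM in WT, and cKO replicate 1 was highest for both lists. The 4 listed markers of CD8 T and NK cells summed to 17.6 and 19.6 RPKM in cKO and 20.1 and 15.3 RPKM in WT.

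Several of the genes make forms with and without a catalytic domain, and the tables list these as separate rows. The sequences below show where such forms part, because that decides which row can speak for an active enzyme. They were read from GENCODE M21 transcripts on GRCm38, the assembly that mm10 names, which the submitters' processing notes give as the build. The models of both Nsd3 forms and of the long Kdm2b form are of a later version than the deposited rows. In Nsd2 (chromosome 5, plus strand) the long rows share exons 1 to 8 with a short form and then run on to exon 21. The short form instead continues into a final exon at 33871407 to 33877282, inside the intron after exon 8 of the long form, and ends before the catalytic SET domain. Nsd3 (chromosome 8, plus strand) parts in the same manner after the exon at 25675697 to 25675742, and its short form also lacks the SET domain. Unlike in Nsd2, the model of the short Nsd3 form also begins with an exon of its own, at 25602284 to 25602736. Kdm2b (chromosome 5, minus strand) differs at the other end: the short form starts from an exon of its own at 122900149 to 122900355 and lacks the JmjC demethylase domain. Lower case marks bases shared by both forms of a gene, and capitals mark the 24 bases that belong to 1 form.
Nsd2 long form: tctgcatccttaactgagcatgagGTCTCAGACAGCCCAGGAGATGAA
Nsd2 short form: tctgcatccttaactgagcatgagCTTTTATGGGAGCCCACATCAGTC
Nsd3 long form: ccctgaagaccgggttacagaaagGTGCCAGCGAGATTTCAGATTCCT
Nsd3 short form: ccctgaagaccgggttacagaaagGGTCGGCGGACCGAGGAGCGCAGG
Kdm2b long form: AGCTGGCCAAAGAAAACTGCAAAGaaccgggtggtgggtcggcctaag
Kdm2b short form: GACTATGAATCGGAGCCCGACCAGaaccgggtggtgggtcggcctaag

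The targeted gene Nsd2 had the largest difference among the members and was lower in both cKO libraries, though not past the adjusted threshold. For each of the other 9 members the 95% interval of the difference held 0. The Nsd2 row NM_175231.2 stood at 3.46 and 4.27 RPKM in cKO and 6.82 and 7.44 RPKM in WT. Both cKO values were lower than either WT value, with a mean at 54.2% of that in WT. The log2 difference was -0.74 (95% interval -1.12 to -0.37) on the log2(RPKM + 1) scale. Limma's unadjusted p was 0.00308, the 24th lowest of 10709 genes, and its adjusted p over all of them was 0.9998. No gene was called at an adjusted p of 0.05 (0 of 10709, 0%), while 332 (3.1%) had an unadjusted p under 0.05. In bulk RNA, fewer cells with the intact gene and less of its RNA per cell cannot be told apart.

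A second Nsd2 row, NM_001081102.2, held the same reads as the first. Its values were 3.46 and 4.27 RPKM in cKO and 6.81 and 7.43 RPKM in WT, and the value of NM_175231.2 was 1.000433 to 1.000436 times as high in the 4 libraries. That is the ratio of lengths (1.000434) if NM_175231.2 is 3 bases shorter than the 6919 bases of the other. The GENCODE model of NM_175231.2 is shorter at both ends as well (4633 bases against 6919), so the length of that row in the tables was inferred from its values and not read from the model. Inside the transcript the models differ by 3 bases at the start of exon 7 (33867574 or 33867577), shown here with the extra codon in capitals between the end of exon 6 and the rest of exon 7.
NM_001081102.2: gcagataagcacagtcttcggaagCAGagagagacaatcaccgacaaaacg
NM_175231.2: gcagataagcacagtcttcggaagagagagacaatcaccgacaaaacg
The long rows are therefore 1 measurement, and the tables do not tell these forms apart.

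Reads on the long row could be recovered as whole numbers from its length and the depth. There were 460 (95% exact Poisson interval 419 to 504) and 628 (580 to 679) in cKO, and 920 (862 to 981) and 985 (924 to 1048) in WT. These intervals cover counting error only and are not scaled for depth. Those of cKO and WT did not overlap, but neither did those of the 2 cKO libraries, so such a gap is not particular to genotype. The short row NM_001177884.1 held 255 and 434 reads in cKO and 464 and 592 reads in WT, at 1.70 and 2.62 RPKM in cKO and 3.05 and 3.97 RPKM in WT. Its groups were separate as well, cKO standing at 61.6% of WT on average, and its log2 difference was -0.52 with a standard error of 0.20 (limma's unadjusted p = 0.0442, adjusted p = 0.999994 over 13833 rows).

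The reads of the exons shared by long and short forms, 1910 bases, enter both rows if each row counts every read over its exons, as the equal counts of the long rows imply. The long row exceeded the short row by 205 and 194 reads in cKO and by 456 and 393 reads in WT. On that reading at least these numbers of reads fell on exons that only the long form has, among them those that encode the SET domain. In RPM, reads scaled to the depth of each library, the excess was 10.7 and 9.12 in cKO and 23.4 and 20.5 in WT. The cKO mean was 45.1% of that in WT, a ratio of lower bounds that does not give the level of the long form. RNA with exons of the long form was thus measured in both cKO libraries, and the tables hold no row for single exons that could show a deletion.

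**Figure D1:**
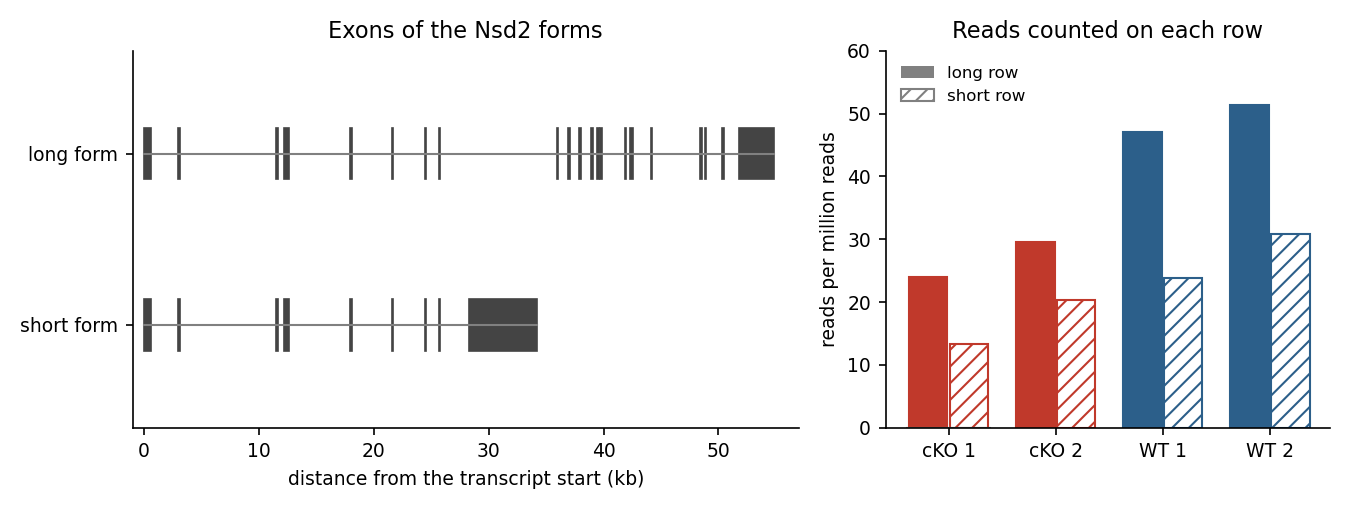
The left panel draws the exons of the long (NM_001081102.2) and short (NM_001177884.1) Nsd2 forms as boxes by distance from the transcript start in kb. The right panel plots the depth-scaled reads counted on each row in each library, cKO replicates at the left and WT replicates at the right, filled bars for the long row and hatched bars for the short row: the filled bars stand for 460 and 628 reads in cKO and 920 and 985 reads in WT.

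Related writers that could stand in for Nsd2 did not pass the test in either direction. Nsd1, the founding member of the family, stood at 28.6 and 31.2 RPKM in cKO and 29.4 and 30.5 RPKM in WT. The cKO libraries were both the lowest and the highest of the 4, so the groups overlapped, and cKO averaged 99.98% of WT. The log2 difference was -0.0014 and its 95% interval ran from -0.30 to 0.30, which is 0.810 to 1.23 times as a fold of RPKM + 1.

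Nsd3, whose short form binds chromatin without methylating it, had the highest row of all members. The short row NM_001001735.1 stood at 54.2 and 57.1 RPKM in cKO and 58.7 and 60.8 RPKM in WT. Both cKO libraries lay just below both WT libraries, as they did for 9.06% of all genes tested, and cKO averaged 93.1% of WT. The log2 difference was -0.10, with a 95% interval from -0.40 to 0.19. The long row NM_001081269.1, which encodes the SET domain, was lower in level and stood at 28.3 and 31.2 RPKM in cKO and 30.8 and 33.8 RPKM in WT. Here the groups overlapped, and cKO averaged 92.0% of WT (log2 difference -0.12, 95% interval -0.43 to 0.20). Taking the highest row per gene therefore takes Nsd3 from the row of the short form, at a mean of 57.7 RPKM over the 4 libraries against 31.1 RPKM for the long row. In the models, which are of a later version than these rows, 1929 of the 3652 bases of the short form are shared with the long form. Reads of both forms can thus enter either row, and neither value is the level of 1 form.

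Ash1l, a Trithorax-group writer that works with Morf4l1 (MRG15), had the lowest unadjusted p of the 9 members other than Nsd2. It stood at 12.7 and 14.8 RPKM in cKO and 14.1 and 16.6 RPKM in WT, with overlapping groups and a cKO mean at 89.6% of WT. Its p in limma was 0.354 before and 0.9998 after adjustment, and the 95% interval of the log2 difference ran from -0.51 to 0.22. Setd2, the sole major writer of the trimethyl mark, stood at 15.005 and 19.4 RPKM in cKO and 16.7 and 18.9 RPKM in WT. The groups overlapped, with cKO replicate 1 lowest and cKO replicate 2 highest. Its log2 difference was -0.055, with a 95% interval from -0.46 to 0.35.

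The summed RNA of the other dimethylation writers did not pass its test, and its mean was lower in cKO than in WT. Nsd1, Ash1l and the highest Nsd3 row added up to 95.5 and 103 RPKM in cKO and 102 and 108 RPKM in WT, 99.4 ± 5.43 RPKM in cKO and 105 ± 4.02 RPKM in WT (SD, n = 2 each). The difference of -5.70 RPKM had an exact permutation p of 0.667, two-sided, in a design whose smallest possible p is 0.333. With the long Nsd3 row, chosen after its values were seen, the sum was 69.6 and 77.3 RPKM in cKO and 74.3 and 80.9 RPKM in WT, and the difference was -4.18 RPKM. Nsd2 made up a small part of this RNA in both genotypes. With that Nsd3 row it was 4.74% and 5.23% of the RPKM of the 4 dimethylation writers in cKO and 8.40% and 8.42% in WT (exact permutation p = 0.333, the smallest possible). The share is one of RNA and says nothing of enzyme activity.

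**Figure D2:**
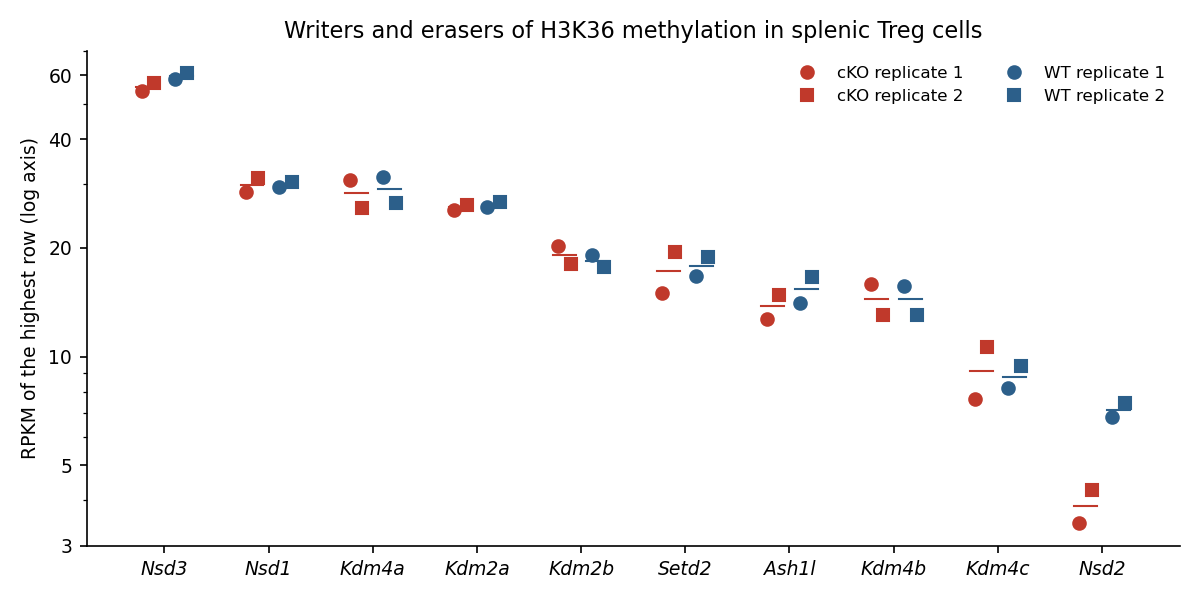
RPKM of the row with the highest mean of each member (log axis), in cKO replicates 1 and 2 and WT replicates 1 and 2, ordered by mean level; horizontal lines are group means. Nsd2 is the lowest member and the one whose groups stand well apart, with 3.46 and 4.27 RPKM in cKO and 6.82 and 7.44 RPKM in WT.

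Neither eraser of the dimethyl mark passed the test. Kdm2a had the tightest values of all members, 25.4 and 26.3 RPKM in cKO and 25.9 and 26.8 RPKM in WT, with a cKO mean at 98.2% of WT and a 95% interval of the log2 difference from -0.31 to 0.26. Kdm2b, which brings a variant Polycomb complex to CpG islands, had 3 rows. The row without the JmjC domain, NM_013910.2, was the highest, at 20.3 and 18.1 RPKM in cKO and 19.1 and 17.7 RPKM in WT. The row NM_001003953.1, which encodes that domain, stood at 18.5 and 16.7 RPKM in cKO and 18.4 and 16.8 RPKM in WT, and NM_001005866.1 at 18.8 and 17.1 RPKM in cKO and 18.8 and 17.1 RPKM in WT. The groups overlapped in each row, and the cKO means were 104%, 99.99% and 99.9% of WT in that order. These rows share exons and so reads, and similar values do not show that the forms are equally abundant.

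The trimethyl erasers showed no difference past the test either. Kdm4a stood at 30.9 and 25.7 RPKM in cKO and 31.5 and 26.5 RPKM in WT on its highest row NM_001161823.1. Its other row, NM_172382.2, stood at 28.7 and 24.7 RPKM in cKO and 29.4 and 25.1 RPKM in WT. In both rows the replicates numbered 1 were high and those numbered 2 low in each genotype. Kdm4b did the same, at 15.9 and 13.0 RPKM in cKO and 15.7 and 13.1 RPKM in WT. Kdm4c, the lowest eraser here, stood at 7.64 and 10.6 RPKM in cKO and 8.17 and 9.42 RPKM in WT on NM_144787.2, and at 7.48 and 10.5 RPKM in cKO and 7.97 and 9.28 RPKM in WT on NM_001172095.1, with the replicates numbered 2 high. The log2 differences of the highest rows were -0.034 for Kdm4a, 0.0059 for Kdm4b and 0.037 for Kdm4c. The widest interval was that of Kdm4c, from -0.42 to 0.49, at most 1.41 times as a fold of RPKM + 1, and somewhat more as a fold of RPKM. Summed, Kdm4a, Kdm4b and Kdm4c stood at 51.9 ± 3.54 RPKM in cKO and 52.2 ± 4.49 RPKM in WT, and Kdm2a with Kdm2b at 45.03 ± 0.931 RPKM in cKO and 44.7 ± 0.385 RPKM in WT (SD, n = 2 each). Both differences were smaller than the SDs. The Kdm2b value in its sum was that of the highest row, which lacks the JmjC domain. No sum was made with the row that encodes it.

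Across the members, 0 of 10 passed limma's test over all genes and 1, Nsd2, had an unadjusted p under 0.05. In this fit on genotype alone, the log2 difference of 8 of the 9 other members lay within 1 standard error of 0, Ash1l being the exception. The groups were separate for 2 members, Nsd2 and Nsd3, both lower in cKO. Of all genes tested, 9.06% were separate in that direction and 26.4% in either direction. Those of Nsd3 were separate on the short row only and overlapped on the long row, which encodes the SET domain. The median log2 difference was -0.030 over the 10 members and 0.029 over all genes. The intervals of the 9 others lay between 0.702 and 1.41 times as folds of RPKM + 1, which are narrower than the same bounds as folds of RPKM.

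**Figure D3:**
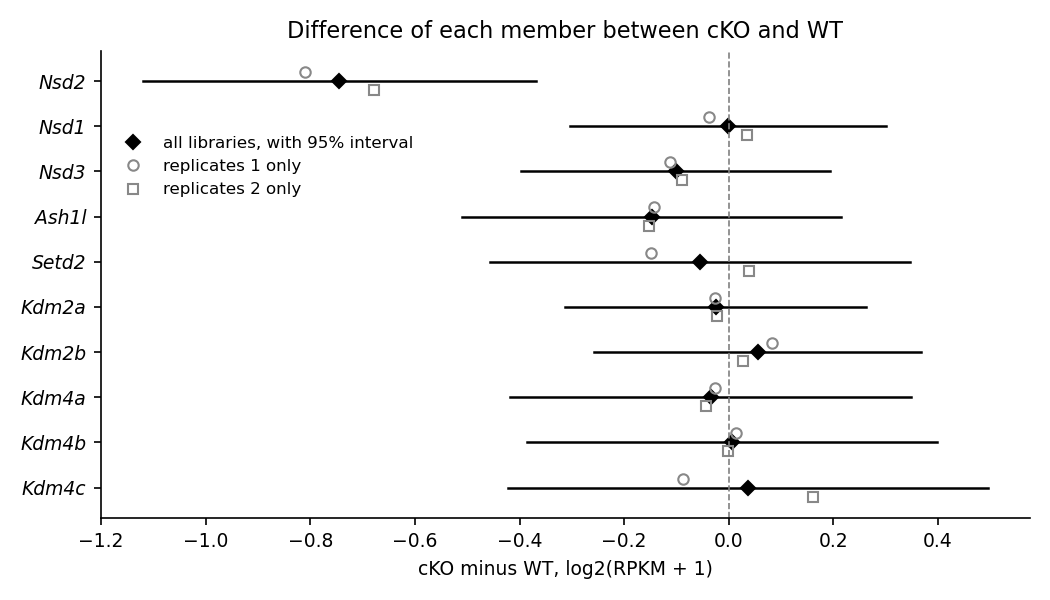
Difference between cKO and WT on the log2(RPKM + 1) scale for each member. Diamonds with lines give the limma estimate over all 4 libraries with its 95% interval, open circles the difference between the replicates numbered 1 and open squares that between the replicates numbered 2. The Nsd2 interval, -1.12 to -0.37, lies below 0, and those of the other 9 members hold 0.

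On their highest rows and over all 4 libraries, cKO included, the members spanned about an order of magnitude in level. From highest to lowest mean they ran Nsd3, Nsd1, Kdm4a, Kdm2a, Kdm2b, Setd2, Ash1l, Kdm4b, Kdm4c and Nsd2. The range of Nsd3 (54.2 to 60.8 RPKM over the 4 libraries) was clear of that of Nsd1 (28.6 to 31.2 RPKM), but only on the short row: the long Nsd3 row, which encodes the SET domain, ran from 28.3 to 33.8 RPKM and overlapped Nsd1. The ranges of Nsd1, Kdm4a and Kdm2a overlapped from one to the next, and those of Kdm2b, Setd2, Ash1l and Kdm4b did so as well. Kdm4c (7.64 to 10.6 RPKM) and Nsd2 (3.46 to 7.44 RPKM) each lay clear of the member above. The targeted gene was thus the least abundant member in WT Treg cells too. In WT alone it averaged 7.13 RPKM and the long Nsd3 row 32.3 RPKM, a narrower span.

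Libraries of different replicate number, rather than genotype, were separate for 8 of the 10 members, as they were for 60.9% of all genes tested. In both genotypes the libraries numbered 2 were higher than those numbered 1 for Nsd1, Ash1l, Setd2, Kdm2a and Kdm4c, and lower for Kdm2b, Kdm4a and Kdm4b. The labels do not say what a number marks. This difference went with the base composition of the transcript, and no cause of it was tested. Kdm4c, Setd2 and Ash1l had the lowest GC content (43.7%, 44.3% and 44.6%) and were higher in number 2 by 0.31, 0.26 and 0.22 on the log2(RPKM + 1) scale. Kdm4a, Kdm2b and Kdm4b had the highest (53.6%, 53.9% and 58.7%), and their log2 differences between numbers 2 and 1 were -0.25, -0.13 and -0.26.

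Nsd1, Nsd2, Nsd3 and Kdm2a lay between in both respects, with GC contents of 46.5% to 50.2% and log2 differences of 0.087, 0.18, 0.062 and 0.046 in that order. Over the 10060 genes with a GC content (93.9% of those tested) Pearson's r between GC content and the difference by number was -0.71, and between GC content and the difference by genotype 0.17, both across genes that share the same 4 libraries. Within each number Nsd2 was lower in cKO, by log2 differences of -0.81 in number 1 and -0.68 in number 2. Nsd3 stood at -0.11 and -0.089, Ash1l at -0.14 and -0.15, Kdm2a at -0.027 and -0.023, Kdm4a at -0.025 and -0.044, and Kdm2b at 0.083 and 0.027, in numbers 1 and 2 in that order. The sign on the highest row differed between numbers for Nsd1 (-0.038 and 0.035), Setd2 (-0.15 and 0.039), Kdm4b (0.013 and -0.0015) and Kdm4c (-0.087 and 0.16). The Kdm2b values above are of its highest row, without the JmjC domain. On the row with that domain, Kdm2b stood at 18.5 and 16.7 RPKM in cKO and 18.4 and 16.8 RPKM in WT. There cKO was higher in number 1 and lower in number 2.

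**Figure D4:**
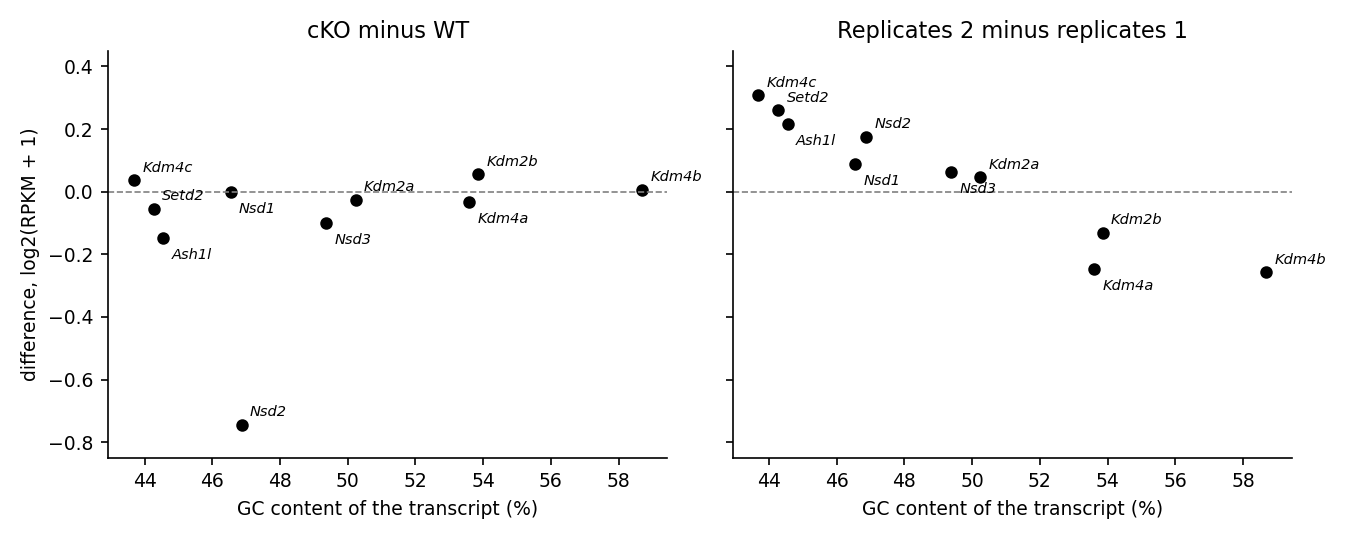
GC content of the transcript of each member (%) against the difference between cKO and WT (left) and between the replicates numbered 2 and those numbered 1 (right), both on the log2(RPKM + 1) scale. Nsd2 stands apart at the left, at -0.74, and at the right the members fall with GC content from 0.31 for Kdm4c to -0.26 for Kdm4b.

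Other genes of the H3K36 system were read from further lists. Of 8 genes reported in some studies as further writers or erasers, 7 reached a mean of 1 RPKM and were tested, and 0 passed in either direction (median log2 difference 0.092). Kdm8, a JmjC protein, stood at 3.24 and 2.89 RPKM in cKO and 2.61 and 1.98 RPKM in WT (limma's unadjusted p = 0.109). Smyd2, a lysine methyltransferase that also acts on proteins other than histones, stood at 12.2 and 11.0 RPKM in cKO and 10.5 and 8.65 RPKM in WT (unadjusted p = 0.142). For each of these genes the lower cKO value was above the higher WT value, as it was for 17.4% of all genes tested. Riox2 stood at 18.5 and 22.1 RPKM in cKO and 18.7 and 19.2 RPKM in WT, and its groups overlapped.

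Proteins that read methylated H3K36 through PWWP, Tudor or chromo domains, or that carry such domains, formed a list of 18 genes, all tested. None passed limma's test (0 of 18, and 0 at an unadjusted p under 0.05), 8 had a log2 difference above 0 and the median was -0.026. Phf19, which links Polycomb complex PRC2 to this mark, stood at 1.75 and 1.92 RPKM in cKO and 1.40 and 1.30 RPKM in WT (limma's unadjusted p = 0.101). Hdgf, a PWWP protein, stood at 59.4 and 62.2 RPKM in cKO and 53.3 and 52.1 RPKM in WT. Zmynd11, a reader of the trimethyl mark, stood at 25.1 and 26.8 RPKM in cKO and 28.8 and 31.8 RPKM in WT. The groups of Phf19 and Hdgf were separate with cKO above WT (2 of 18, against 17.4% of all genes tested). Those of Zmynd11 were separate with cKO below WT, as were those of the mismatch repair gene Msh6 (2 of 18, against 9.06% of all genes tested). Msh6, named after its values were seen, stood at 15.5 and 16.9 RPKM in cKO and 17.4 and 18.4 RPKM in WT.

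Partners of the members were not called either. Of 6 partners of Setd2 and Ash1l, 0 passed and 3 were above 0 (median log2 difference 0.011). Morf4l2, a paralog of the Ash1l partner Morf4l1, stood at 21.9 and 21.9 RPKM in cKO and 23.1 and 31.0 RPKM in WT (limma's unadjusted p = 0.146), with WT replicate 2 high. Its groups were separate with cKO below WT (1 of 6, against 9.06% of all genes tested). Of 9 subunits of the Kdm2b complex PRC1.1, 0 passed and 8 were above 0 (median 0.063, against 0.029 over all genes tested). Pcgf1, the subunit that defines this complex, stood at 9.16 and 8.88 RPKM in cKO and 7.91 and 6.57 RPKM in WT (limma's unadjusted p = 0.0929). Bcor, its partner, stood at 29.7 and 27.6 RPKM in cKO and 26.7 and 26.5 RPKM in WT, and Ring1, a ubiquitin ligase, at 15.4 and 12.2 RPKM in cKO and 14.2 and 10.1 RPKM in WT. The groups of Pcgf1 and Bcor were separate with cKO above WT (2 of 9, against 17.4% of all genes tested), and those of Ring1 overlapped.

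The genes with profiles nearest to that of Nsd2 were no chromatin enzymes. Likeness was the Euclidean distance between log2(RPKM + 1) values centred on their own mean over the 4 libraries, among the 8377 genes whose mean reached 4 RPKM. The 5 nearest were the T cell receptor segments Traj15 and Trav12-4, the scaffold protein gene Gphn, the glucocorticoid-induced Tsc22d3 and Rgs2, a regulator of G protein signalling. Traj15, the nearest at a distance of 0.062, stood at 18.2 and 22.7 RPKM in cKO and 34.2 and 37.4 RPKM in WT. Rgs2 stood at 3.85 and 5.47 RPKM in cKO and 7.65 and 8.49 RPKM in WT. With 4 libraries such likeness mostly restates that a gene was lower in cKO, and limma's adjusted p was 0.9998 for each of the 5.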

How the data were processed

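RNA-seq of 4 libraries (2 cKO, 2 WT, grouped and numbered by their titles) was used as deposited. The authors deposited RPKM values per RefSeq transcript, a unit read from the values since the file headers name none; HISAT2, DESeq2 and mm10 stand in the submitters' processing notes with no role, and no label or header used here states the counting tool, row filter or strand use. Of 19291 rows, 16720 were matched to a RefSeq gene (GRCm38.p6) by accession and 1402 by name; 1169 unnamed rows with 10.9% of the RPKM stayed out of tests. Depth came from steps of low values and GENCODE M21 lengths: a share of 60.1% to 62.2% of values up to 20 reads came within 0.1 of a whole number (20% by chance), in part because depth was fitted to them. Reads were computed for rows whose version has such a length.

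For each gene the row of highest mean was used, and 10709 genes (13833 rows in the row-wise fit) whose mean reached 1 RPKM entered limma 3.58.1 (R 4.3.3) on log2(RPKM + 1), with trend and robust moderation, two-sided, with genotype alone in the model and p-values adjusted by Benjamini-Hochberg over all tested. On this scale changes of low genes come out too small. The fit was tested on simulated data. Members and lists were chosen with earlier results of these data known. All members were named, along with the 3 genes of lowest p in each further H3K36 list (1 is given for the partner list) and the 5 profiles nearest to Nsd2. Alternatives changed the pseudocount, filter, scaling, block, value per gene, libraries and moderation. Figures used matplotlib 3.10.9.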

Additional observations from a re-analysis of the deposited data

How the results depend on the processing

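Nsd2 kept its direction and stayed short of the threshold in all 11 alternatives, with log2 differences from -0.86 to -0.62 when 1 library was left out and adjusted p from limma of 0.0606 (without cKO replicate 2) to 0.999994 (with the filter raised to 4 RPKM). No other member was called under any of the settings. Median-of-ratios scaling turned the log2 difference of Kdm4b to -0.038 and of Kdm4c to -0.0059. Leaving out 1 library turned signs for Nsd1 (-0.063 to 0.060), Setd2 (-0.23 to 0.12), Kdm2b (-0.024 to 0.13), Kdm4a (-0.16 to 0.093), Kdm4b (-0.13 to 0.14) and Kdm4c (-0.18 to 0.25); these fits leave the replicate numbers unbalanced, and a lone library is assumed to vary like the other group. They called 33 genes without cKO replicate 1, 55 without cKO replicate 2, 68 without WT replicate 1 and 40 without WT replicate 2, and 24 to 85 transcript rows; the cause was not tested. The summed RPKM of the other dimethylation writers stayed lower in cKO, by -9.55 to -1.86 RPKM with 1 library left out.

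Same-numbered libraries deviated together from their group means (r = 0.50 over 10709 genes), but the labels do not say that they are pairs. With the replicate block 1 gene was called, not a member, Nsd2 had a log2 difference of -0.74 with an adjusted p from limma of 0.0962, and no transcript row was called. The block made the standard errors of the members smaller. Ash1l (-0.15, standard error 0.063) and Nsd3 (-0.10, standard error 0.055) then lay past 1 standard error of 0, and the members other than these and Nsd2 did not. In simulated data of this size (10709 genes), 1.5-fold changes were recovered in 99.4% of cases, with 6.8 false calls on average. The simulated noise was a fixed setting, drawn independently for each gene with no difference by replicate number, and was not fitted to these libraries. The recovery therefore does not give the power of the real comparison, in which Nsd2 at 54.2% of WT was not called. The long Nsd2 row rests on 460 to 985 reads.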
